A study of Solanum lycopersicum with 18 samples.

Results

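HSP101 and the other ClpB-type protein disaggregases of tomato leaf were represented by 3 of the 35821 genes of the table, Solyc03g115230 (HSP101), Solyc02g088610 and Solyc06g011400. They were taken by identifier, whatever their level. Proteins of the Hsp100/ClpB family form ring-shaped ATPases that pull aggregated proteins through a central channel and return them, with the help of HSP70 and J proteins, to a state in which they can refold. In plants the cytosolic member is HSP101, which Arabidopsis and maize need to survive severe heat after a mild pretreatment, and further ClpB proteins work in chloroplasts and mitochondria. In Arabidopsis these genes are switched on within minutes of warming by heat stress transcription factors of the HSFA1 class.

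RNA was sequenced from the fourth leaf of 4-week-old Moneymaker plants that had been kept at 24 °C (0 h) or moved to 45 °C for 1 h. Wild-type plants (WT) were compared with a pair of independent transgenic lines that carry a hairpin RNA construct against HSFA1a, whose promoter is not given in the sources used here. The labels number these lines, whereas the count table names them CS2 and CS3 without pairing them, and CS2 and CS3 are kept below. The labels and the table hold 18 libraries, in 6 conditions of 3 biological replicates each, where the study's methods name fewer replicates.

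HSP101 lies on chromosome 3 at 61051515 to 61055717 of the M82 V1.0 assembly, on the minus strand, and its row spans 4203 bases. Solyc02g088610 lies on the minus strand of chromosome 2 at 50381716 to 50388829 and spans 7114 bases. It is the gene that carries the RefSeq symbol HSP100/CLPB, since 18 of 27 RefSeq neighbours of that symbol lay at the same distances from it, against 6 for the next best gene. Solyc06g011400 lies on the plus strand of chromosome 6 at 7083274 to 7090558 and spans 7285 bases, and the sources used here give no compartment for its protein. The spans include introns and none of the 3 overlaps a neighbouring gene.

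Library totals ranged from 2676951 to 3643803 counts at 0 h and from 1713285 to 3669618 counts at 1 h. HSFA1a itself (Solyc08g005170, HSFA1A) had counts that went against the labels, and whether reads of the hairpin construct were counted with the gene was not tested. At 0 h it ranged from 66.6 to 84.5 CPM (counts scaled to a common library total) in WT, from 62.2 to 72.8 in the libraries labelled CS2 and from 67.4 to 90.3 in those labelled CS3. At 1 h the libraries labelled CS2 and CS3 were higher than WT, by 0.60 and 0.72 on the log2 scale (adjusted p = 0.00672 and 0.00303, edgeR). Every direction below is therefore one between libraries labelled WT, CS2 and CS3. All 8 chlorophyll a/b-binding protein genes matched as leaf markers had counts in every library, their summed level running from 2093 to 2842 CPM at 0 h and from 2700 to 4717 CPM at 1 h, and PG2, a fruit marker, was at 0 in all 18. These leaf markers held up to 0.811 counts per base of gene span. In CS2 at 1 h, CAB-10A had 903, 989 and 1072 counts but 603.4, 484.7 and 304.0 CPM. The part of library size in the marker levels was not tested. An axis from WT at 0 h to WT at 1 h was drawn over the 7563 tested genes called in the WT heat response. These genes were picked from the same WT libraries, so that WT spans the whole shift by construction. Along this axis the libraries labelled CS2 reached 61.8% to 78.5% of the WT shift at 1 h and those labelled CS3 75.5% to 81.4%. In a bulk leaf sample, fewer cells of a type and less RNA per cell cannot be told apart.

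All 3 disaggregase genes rose strongly within 1 h at 45 °C in each genotype, and HSP101 rose most. At 0 h HSP101 stood at 45.4, 73.1 and 55.2 CPM in WT (raw counts of 146, 264 and 150), at 50.7, 62.3 and 54.5 for CS2, and at 51.5, 61.8 and 41.1 for CS3. After 1 h it stood at 1122, 1213 and 949.1 CPM in WT (2168, 2388 and 2163 counts), at 1411, 1043 and 735.8 CPM for CS2 (2112, 2128 and 2595 counts), and at 1364, 1430 and 1119 CPM for CS3 (2576, 2360 and 2452 counts). The ranges of the 3 genotypes overlapped at both times, while every heated library was far above every unheated one. The rise was 18.8-fold in WT (log2 fold change 4.24, standard error 0.24, adjusted p = 1.9e-10, edgeR quasi-likelihood test, n = 3 against 3), 19-fold in CS2 (4.25) and 25.4-fold in CS3 (4.66). Only 0.679% of the 15312 genes tested had a larger fold change in WT. Per kilobase of gene span its mean level went from above 58.9% of tested genes to above 99.3%.

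Solyc02g088610, the HSP100/CLPB gene, had the highest level per kilobase of the 3 in unheated leaves. At 0 h its libraries held 104.1, 140.9 and 121.5 CPM for WT, 121.8, 130.6 and 115.1 for CS2, and 111.6, 135.6 and 125.7 for CS3. After 1 h they held 1184, 1329 and 1052 CPM in WT (2289, 2617 and 2398 counts), 802.6, 417.1 and 372.3 CPM for CS2 (1201, 851 and 1313 counts), and 1058, 1286 and 888.4 CPM for CS3 (1998, 2122 and 1947 counts). The genotypes overlapped at 0 h. At 1 h all 3 CS2 libraries fell below every WT and CS3 library, an order whose share over tested genes was not computed. Its rise was 9.72-fold in WT (log2 fold change 3.28, standard error 0.24, adjusted p = 3.8e-09, edgeR), 4.31-fold in CS2 (2.11, adjusted p = 6.4e-07) and 8.67-fold in CS3 (3.12).

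Solyc06g011400 had the smallest rise. At 0 h it was found at 85.1, 77.2 and 75.1 CPM in WT (274, 279 and 204 counts), at 58.8, 67.6 and 60.7 for CS2, and at 57.4, 68.1 and 75.0 for CS3. After 1 h it was found at 688.7, 542.5 and 585.8 CPM in WT (1331, 1068 and 1335 counts), at 265.3, 197.5 and 190.3 CPM for CS2 (397, 403 and 671 counts), and at 487.5, 497.5 and 440.3 CPM for CS3 (921, 821 and 965 counts). At 1 h the order was WT, then CS3, then CS2, with no overlap between any of them. The share of tested genes with this order was not computed, while 15.7% had every library of both lines below every WT library at 1 h. The rise was 7.64-fold in WT (log2 fold change 2.93, standard error 0.15, adjusted p = 6.6e-11, edgeR), 3.47-fold in CS2 (1.80, adjusted p = 1.5e-08) and 7.12-fold in CS3 (2.83).

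**Figure D1:**
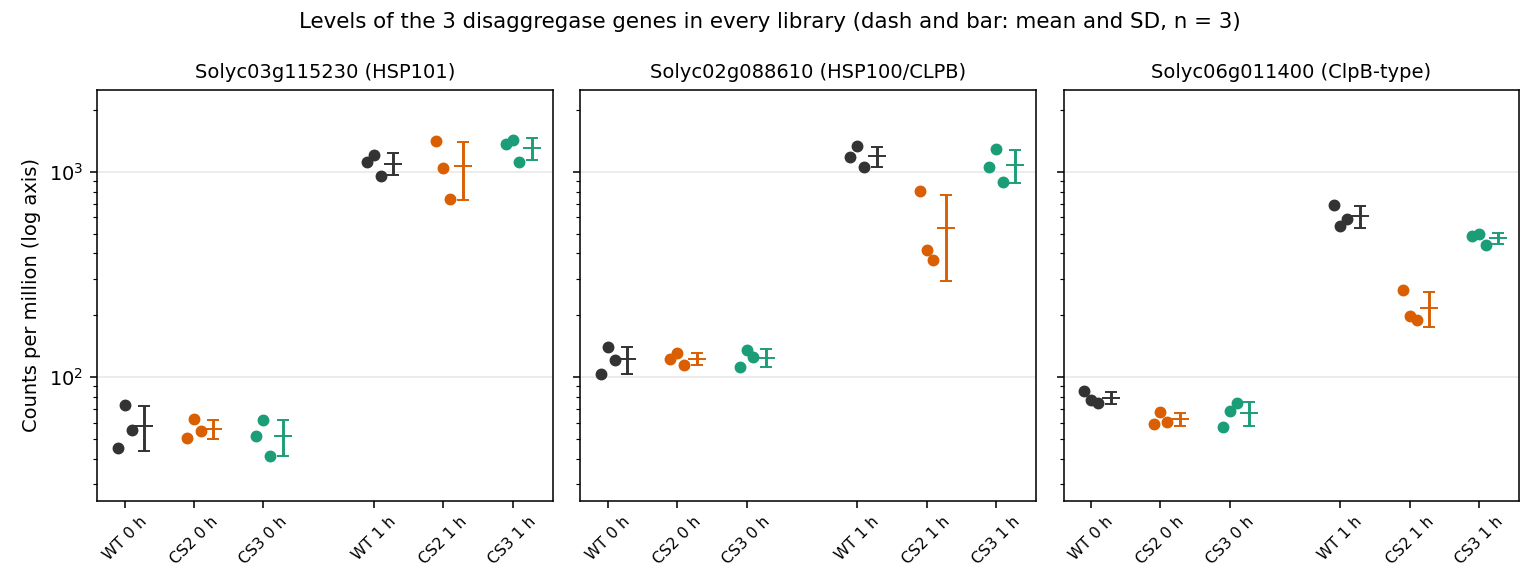
Levels of the 3 genes in CPM (log axis) in each of the 18 libraries, by genotype and time, with points for libraries and a dash and bar for the mean and SD (n = 3). All heated libraries lie above all unheated ones, and at 1 h the CS2 libraries lie below WT for Solyc02g088610 and Solyc06g011400 but not for HSP101.

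All 3 genes passed the test as higher after heat in every genotype, where 24.2% of tested genes in WT, 28.7% in CS2 and 26.7% in CS3 were called higher. For each of them every 1 h library lay above every 0 h library, as it did for 12.2% of tested genes. The order of the heat responses was the same in the 3 genotypes, from HSP101 through Solyc02g088610 to Solyc06g011400, although the 95% intervals of the last 2 overlapped in each, and those of the first 2 in WT.

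The counts of HSP101 at 1 h were nearly flat across libraries of very different size. They ran from 2112 to 2595, a 1.23-fold range, while the totals of the same 9 libraries spanned 2.14-fold. The highest counts stood in the largest library, CS2 replicate 3, which nevertheless had the lowest CPM. Duplicate reads had been removed before counting, and single-end reads that start at the same base then count once. HSP101 held 0.502 to 0.617 counts per base of its span at 1 h, against at most 0.0628 at 0 h, and only 1.42% of tested genes reached a higher value in any library. Solyc02g088610 held 0.120 to 0.368 counts per base at 1 h and Solyc06g011400 0.0545 to 0.183. The limit was not strict, since 21 of the tested genes exceeded 1 count per base. When each count was corrected for positions counted once, over the whole span, the HSP101 heat response in WT became 4.73 on the log2 scale, and 5.06 when 0.75 of the span was taken as transcribed, a setting chosen after seeing the data. Values of HSP101 are given below as deposited, with corrected ones for its differences between genotypes at 1 h.

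**Figure D2:**
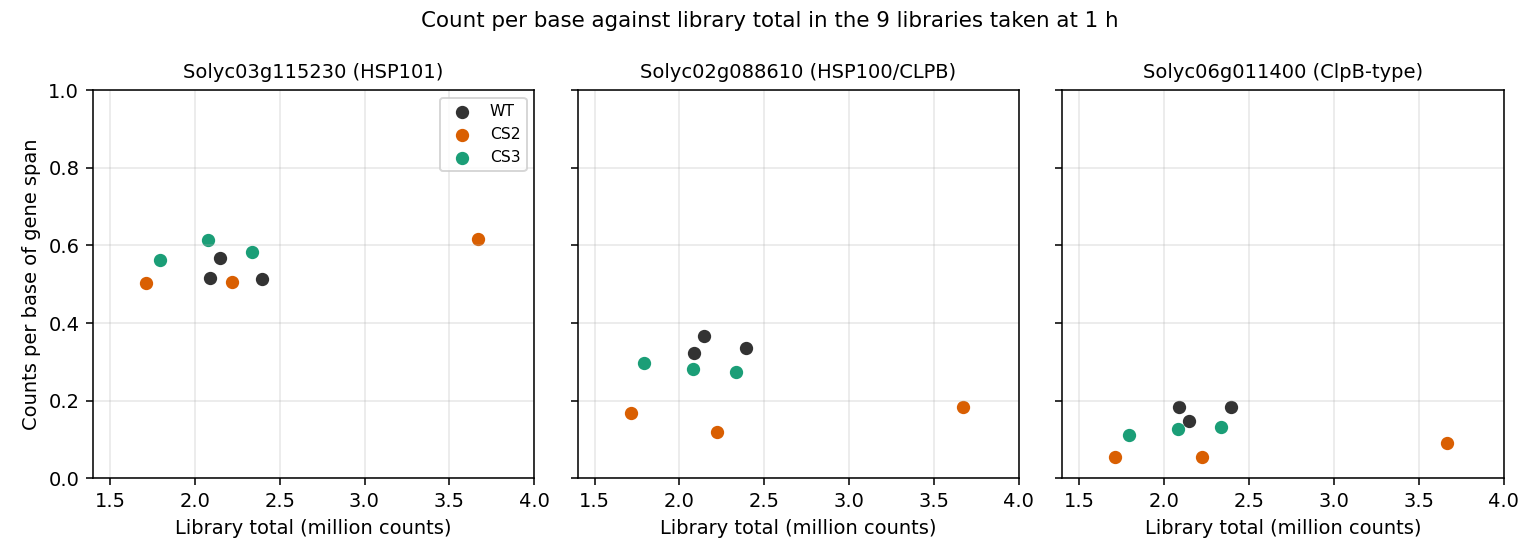
Raw counts per base of gene span against the library total, for the 9 libraries taken at 1 h, with 1 panel per gene and points coloured by genotype. HSP101 stays between 0.502 and 0.617 counts per base whatever the total, while the other genes are lower and differ by genotype.

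Each line was compared with WT after heat, as labelled. In CS2, Solyc02g088610 and Solyc06g011400 were lower than in WT and HSP101 was not called. Solyc02g088610 averaged 530.7 ± 237 CPM for CS2 and 1189 ± 139 CPM for WT (SD, n = 3), a 2.25-fold lower level (log2 fold change −1.17, standard error 0.22, adjusted p = 0.000477, edgeR). Solyc06g011400 averaged 217.7 ± 41.4 CPM for CS2 and 605.7 ± 75.1 CPM for WT (SD, n = 3), a 2.80-fold lower level (−1.48, standard error 0.14, adjusted p = 3.9e-07, edgeR). These were 2 of the 3 genes, where 15.3% of all tested genes were called lower. Lower fold changes than theirs were found for 3.48% and 1.99% of tested genes respectively. Without CS2 replicate 3 at 1 h, the largest library, both stayed below WT, at −0.99 (adjusted p = 0.00235, edgeR) and −1.42 (adjusted p = 4.0e-06).

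HSP101 averaged 1063 ± 338 CPM for CS2 and 1095 ± 134 CPM for WT (SD, n = 3). The fitted ratio was 0.969 with a 95% interval of 0.721 to 1.30 (adjusted p = 0.897, edgeR), which leaves room for a difference of that size in either direction. After the correction for positions counted once the log2 difference was −0.08 over the whole span and −0.05 over 0.75 of it. Corrected levels in CS2 replicates 1, 2 and 3 were 1794, 1332 and 1027 CPM over the whole span. Over 0.75 of it they were 2137, 1575 and 1333 CPM. The largest library, replicate 3, thus stayed lowest. The correction takes read starts as evenly spread over the span, which was not tested. The 3 CS2 libraries were widely spread at 1 h. Replicate 1 was the highest and replicate 3 the lowest for each of the 3 genes. The same libraries reached 78.5%, 66.1% and 61.8% of the WT shift over the genes called in the WT heat response. The part of that shift in these values was not tested.

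In CS3, 0 of the 3 genes were called different from WT at 1 h by edgeR, where 24.3% of tested genes were called in either direction. At an unadjusted p below 0.05 there was 1 of 3, beside 36.9% of tested genes, and DESeq2 called 1 of 3, beside 23.8%, in both cases Solyc06g011400. HSP101 was at a ratio of 1.19 (95% interval 0.886 to 1.60, adjusted p = 0.388, edgeR) and Solyc02g088610 at 0.906 (0.662 to 1.24, adjusted p = 0.664). The log2 difference of HSP101 was 0.25 as deposited, 0.31 after the correction over the whole span and 0.42 over 0.75 of it (adjusted p = 0.272 and 0.148, edgeR). Solyc06g011400 averaged 475.1 ± 30.5 CPM in CS3 (SD, n = 3), a ratio of 0.784 to WT (95% interval 0.646 to 0.952), and its log2 fold change of −0.35 had an adjusted p of 0.0622 with edgeR and 0.0462 with DESeq2. It lay below WT in all 3 CS3 libraries, an order whose share over tested genes was not computed. With edgeR it was called when WT replicate 2, CS2 replicate 1 or CS2 replicate 3 at 1 h, or CS3 replicate 1 at 0 h, was left out, at log2 fold changes from −0.42 to −0.36.

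The lines differed from each other at 1 h. Solyc02g088610 was 2.04-fold lower in CS2 than in CS3 (log2 fold change −1.03, adjusted p = 0.0162, edgeR) and Solyc06g011400 2.19-fold lower (−1.13, adjusted p = 0.000238), where 1.31% of tested genes were called lower. For Solyc02g088610 this call was lost when CS2 replicate 2, CS2 replicate 3 or CS3 replicate 2 at 1 h was left out, the adjusted p reaching 0.112 (edgeR), while the log2 fold change stayed between −1.45 and −0.84. HSP101 was at a ratio of 0.814 between the lines (95% interval 0.605 to 1.09, adjusted p = 0.50, edgeR), a log2 difference of −0.30 that became −0.39 and −0.47 after the correction over the whole span and 0.75 of it.

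Before heat, 0 of the 3 genes were called different in either line by edgeR, as were 0.0522% of tested genes in CS2 and 0.229% in CS3. DESeq2 also called 0 in both lines, beside 0.163% and 0.836% of tested genes. An unadjusted p below 0.05 was found for 1 of 3 in CS2, beside 3.51%, and for 0 of 3 in CS3, beside 12.9%. The 1 gene was Solyc06g011400, at 62.4 ± 4.62 CPM for CS2, 66.8 ± 8.86 CPM for CS3 and 79.1 ± 5.27 CPM for WT (SD, n = 3), with a ratio to WT of 0.788 in CS2 (95% interval 0.638 to 0.972, adjusted p = 1, edgeR). All 6 libraries of the lines lay below all 3 of WT, by as little as 74.96 against 75.1 CPM, as was the case for 1.33% of tested genes at 0 h. The same order held for this gene at 1 h, as for 15.7% of tested genes. An exact two-sided permutation test of the 6 libraries of both lines against the 3 of WT, on log2 CPM, gave p = 0.0238 at 0 h and 0.0357 at 1 h for Solyc06g011400, over 84 assignments. The same exact test gave 0.143 at 1 h for Solyc02g088610 and 0.762 for HSP101. Adjusted over the 6 such exact tests run, the values for Solyc06g011400 were 0.107 at both times, so that neither passed. The test treats the 6 libraries of CS2 and CS3 as alike, so that its p-values do not measure the spread between the lines. Between CS2 and CS3 at 0 h, 0 of the 3 genes were called by edgeR, 0 by DESeq2 and 0 at an unadjusted p below 0.05, beside 0.0261%, 0.0653% and 11.1% of tested genes.

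**Figure D3:**
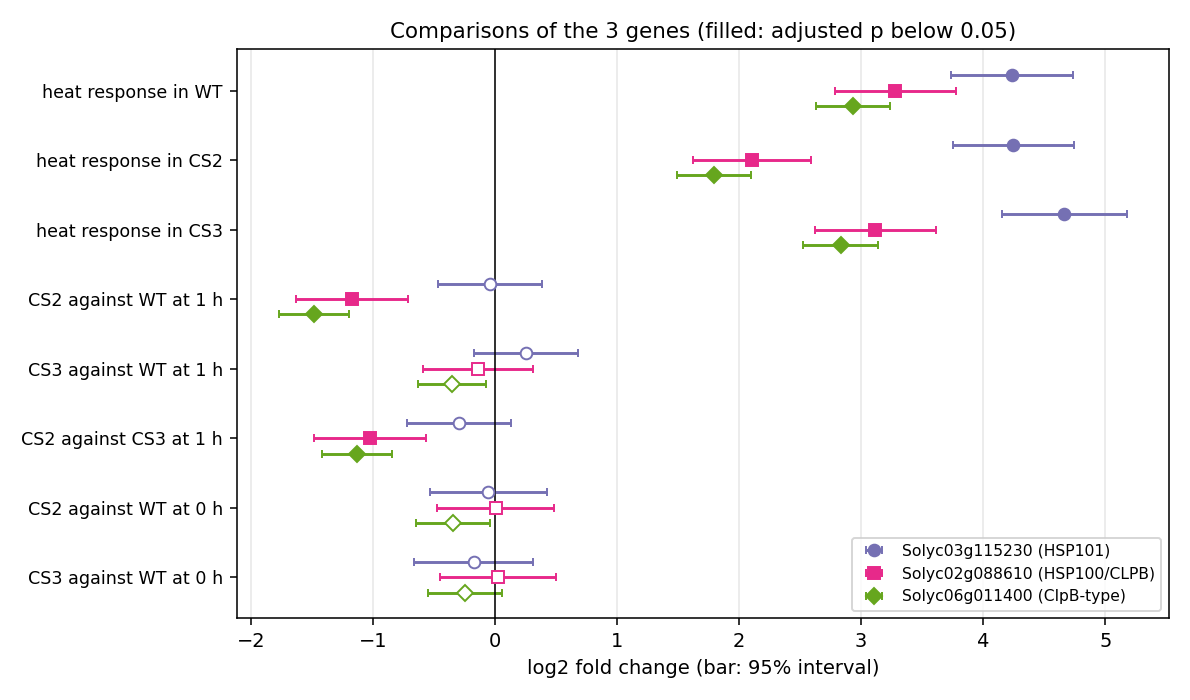
Log2 fold changes of the 3 genes with 95% intervals in 8 comparisons, filled where the adjusted p was below 0.05. The heat responses lie between 1.80 and 4.66, and at 1 h the CS2 values of Solyc02g088610 and Solyc06g011400 against WT are −1.17 and −1.48 while that of HSP101 is −0.04.

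The heat response itself was then compared between genotypes. It was smaller in CS2 than in WT for Solyc02g088610, by −1.17 on the log2 scale (95% interval −1.83 to −0.51, adjusted p = 0.0132, edgeR), and for Solyc06g011400, by −1.14 (−1.56 to −0.72, adjusted p = 0.000665), where 9.35% of tested genes had a response called smaller. For HSP101 the difference was 0.01 (−0.63 to 0.65, adjusted p = 0.986, edgeR), and −0.03 and 0.0058 after the correction over the whole span and 0.75 of it. The same corrections moved its difference between CS3 and WT from 0.43 to 0.47 and 0.58, neither called. Between CS3 and WT, 0 of the 3 responses were called different by edgeR, 0 by DESeq2 and 0 at an unadjusted p below 0.05, beside 10.3%, 11% and 25.8% of tested genes, with differences of 0.43 for HSP101, −0.16 for Solyc02g088610 and −0.10 for Solyc06g011400. The 2 comparisons share the WT libraries. Between CS2 and CS3, 0 of 3 were called by edgeR, 2 of 3 at an unadjusted p below 0.05 and 1 of 3 by DESeq2, beside 0.104%, 7.86% and 0.418% of tested genes. Solyc06g011400 was nearest, at −1.04 (adjusted p = 0.0517, edgeR), and was called when WT replicate 1 at 0 h, CS2 replicate 1 at 1 h or CS3 replicate 3 at 0 h was left out (−1.04, −1.20 and −1.13). Solyc02g088610 was at −1.01 (adjusted p = 0.34, edgeR) and was called only without CS2 replicate 1 at 1 h, at −1.43.

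All 3 genes were counted in the same libraries, so that their ratios per kilobase of span use no scaling between libraries, although the flat counts of HSP101 at 1 h leave its ratios open to the library total. In unheated leaves HSP101 stood below Solyc02g088610 in every library, at a mean ratio of 0.795 ± 0.0735 in WT, 0.771 ± 0.0569 in CS2 and 0.702 ± 0.129 in CS3 (SD, n = 3). After heat this order per kilobase of span turned in every library. The ratio was 1.56 ± 0.0400 in WT, 3.52 ± 0.646 in CS2 and 2.07 ± 0.160 in CS3 (SD, n = 3), with no overlap between the genotypes. The share of gene pairs without such overlap was not computed. The ratios reuse the levels compared above, among them the lower Solyc02g088610 in CS2, and add no separate measurement. Against Solyc06g011400, HSP101 went from 1.28 ± 0.358 to 3.17 ± 0.612 in WT, from 1.55 ± 0.0509 to 8.36 ± 1.43 in CS2 and from 1.36 ± 0.355 to 4.74 ± 0.303 in CS3. The ratio of Solyc02g088610 to Solyc06g011400 overlapped between all genotypes at 1 h, at 2.04 ± 0.411 in WT, 2.42 ± 0.591 in CS2 and 2.31 ± 0.301 in CS3. The ratios with HSP101 at 1 h rest on the counts per base given above, and no corrected ratio was computed. They also rest on the spans, which include introns. In CPM, without division by span, HSP101 stayed below Solyc02g088610 in every WT library at 1 h, at a mean of 1095 against 1189.

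**Figure D4:**
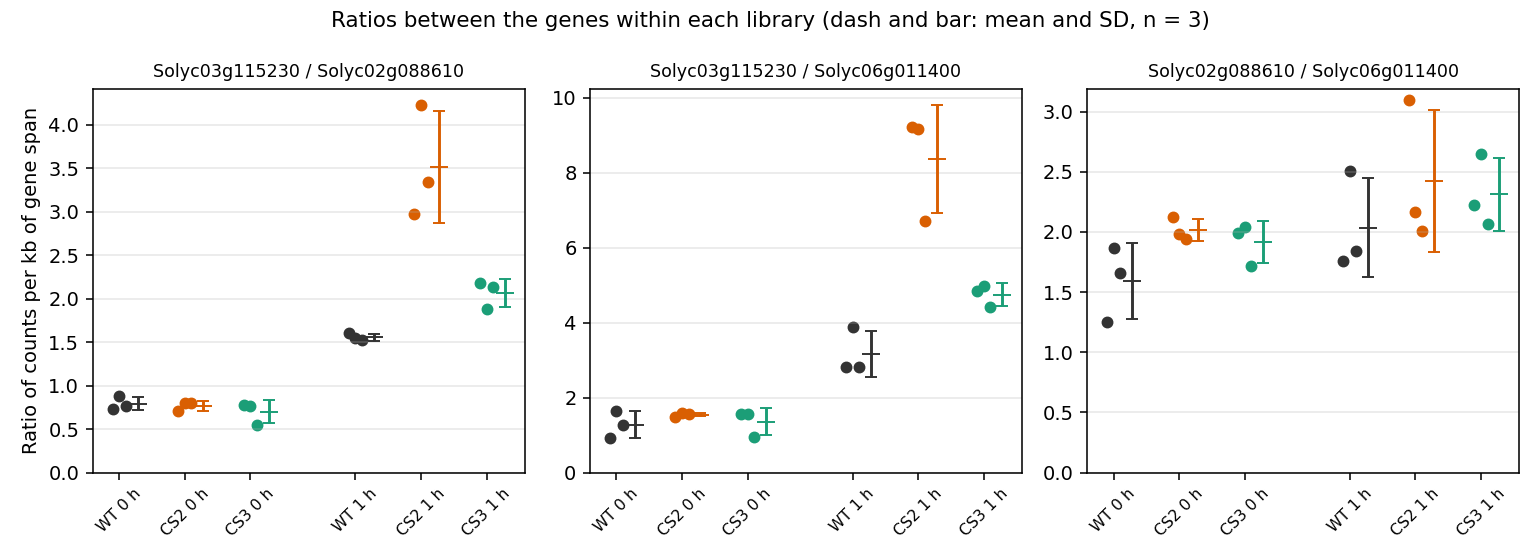
Ratios of counts per kilobase of gene span between pairs of the 3 genes within each library, by genotype and time, with points for libraries and a dash and bar for the mean and SD (n = 3). HSP101 relative to Solyc02g088610 is below 1 in all unheated libraries and highest in CS2 after heat, while Solyc02g088610 relative to Solyc06g011400 overlaps between genotypes.

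Disaggregases act with HSP70 and J proteins, and small heat shock proteins hold unfolding proteins in a form that they can work on. Genes of these families were taken by RefSeq symbol. The HSP70 genes Hsc70.1, Hsc70.2 and hsc70.3 rose in every genotype, by 3.90, 2.24 and 5.16 on the log2 scale in WT, with a median of 3.90 against 0.0023 over all tested genes. At 1 h, edgeR called 0 of the 3 different from WT in CS2 (median 0.02), beside 33.1% of tested genes. In CS3 it called 0 of the 3 (median 0.29), beside 24.3%. DESeq2 also called 0 of the 3 in each line, beside 23.8% of tested genes in CS3. An unadjusted p below 0.05 (edgeR) was found for 0 of the 3 in each, beside 42.6% in CS2 and 36.9% in CS3. Of hsc70.3 the level at 0 h was 26.2 ± 3.42 CPM in WT and 8.02 ± 5.91 CPM in CS2 (SD, n = 3; log2 fold change −1.68, adjusted p = 0.218, edgeR). In that comparison edgeR called 0 of the 3 HSP70 genes, beside 0.0522% of tested genes. DESeq2 called 1 of 3, beside 0.163%, and 1 of 3 had an unadjusted p below 0.05 (edgeR), beside 3.51%. The heat response of hsc70.3 was larger in CS2 than in WT by 1.42 (adjusted p = 0.0392, edgeR), 1 of 3 HSP70 genes where 10.4% of tested genes were called larger, and DESeq2 called 0 of 3. The J protein gene DNAJ rose by 2.06 in WT and stood at 0.12 in CS2 and 0.44 in CS3 against WT at 1 h, with adjusted p of 0.743 and 0.186 (edgeR). Hsc70.1 and hsc70.3 held up to 0.679 and 0.611 counts per base at 1 h, close to the 0.617 of HSP101.

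The small heat shock protein genes HSP17.8, HSP17-6 and Hsp20.0 rose by 3.12, 4.18 and 4.68 on the log2 scale in WT. At 1 h all 3 were lower in CS2 than in WT, by −1.72, −2.10 and −1.30 (adjusted p = 0.00122, 0.000254 and 0.00542, edgeR), and their median was −1.72 against 0.04 over all tested genes, of which 15.3% were called lower. In CS3 0 of 3 were called by edgeR, 0 by DESeq2 and 0 at an unadjusted p below 0.05, with a median of −0.12. Of all tested genes, 24.3%, 23.8% and 36.9% were called by these rules in CS3. A further 2 genes with small heat shock protein symbols were too low to be tested. These genes are short and held up to 0.958 counts per base in WT at 1 h, above the value of HSP101.

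Among heat stress transcription factor genes, HSTF24, the tomato HsfB1, went from 16.6 ± 2.00 to 247.6 ± 30.8 CPM in WT, from 14.7 ± 7.64 to 53.7 ± 29.5 CPM in CS2 and from 14.5 ± 3.67 to 194.2 ± 41.0 CPM in CS3 (SD, n = 3). At 1 h it was lower in CS2 than in WT by −2.26 on the log2 scale (adjusted p = 1.4e-05, edgeR), and its value in CS3 was −0.35 (adjusted p = 0.354). HSFA2, an inducible activator, was at −0.58 in CS2 (adjusted p = 0.0302, edgeR) and −0.02 in CS3 (adjusted p = 0.952) against WT at 1 h. HSFA3 was lower in both lines, by −0.94 for CS2 (adjusted p = 0.00335, edgeR) and −1.08 for CS3 (adjusted p = 0.00193). With HSFA1A, all 4 factors were called in CS2, 3 lower and 1 higher, where 33.1% of tested genes were called in either direction, and 2 of 4 in CS3, 1 lower and 1 higher, where 24.3% were. CLPP2, a subunit of the Clp protease that degrades rather than rescues proteins, rose by 0.42 in WT and was at 0.04 and 0.15 in the lines against WT at 1 h (adjusted p = 0.840 and 0.414, edgeR).

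**Figure D5:**
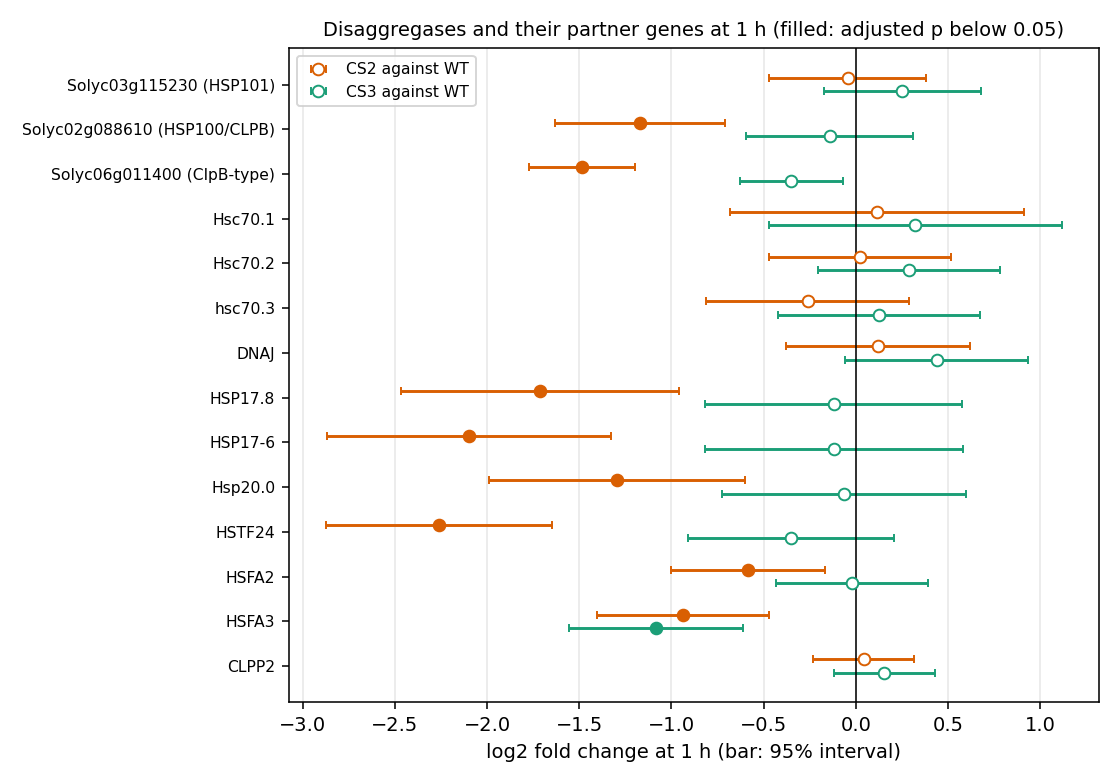
Log2 fold changes at 1 h of CS2 and of CS3 against WT, with 95% intervals, for the 3 disaggregase genes and their partner and regulator genes, filled where the adjusted p was below 0.05. In CS2 both ClpB-type genes, the 3 small heat shock protein genes and HSTF24 lie between −1.17 and −2.26, while HSP101, the 3 HSP70 genes and DNAJ lie between −0.26 and 0.12.

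Over the 18 libraries, which share genotype, time and depth, log2 CPM of HSP101 followed that of Solyc02g088610 with Pearson's r = 0.965 and that of Solyc06g011400 with r = 0.940, and the latter pair followed each other with r = 0.985. As a scale for these values, 6.20%, 4.21% and 3.57% of tested genes had r above 0.9 with HSP101, Solyc02g088610 and Solyc06g011400 respectively. The genes most like HSP101 were Solyc09g011030 (r = 0.997), Solyc05g010210 (r = 0.996) and Solyc09g005120 (r = 0.995), which the sources used here do not name. Solyc05g010210 was at the floor before heat, with means of 0.0922 CPM in WT, 0.0867 in CS2 and 0 in CS3. Its r therefore rests on the step from 0 h to 1 h and on its 1 h values. Solyc09g011030 went from 74.0 ± 7.56 to 681.8 ± 72.8 CPM in WT and reached 656.5 ± 148 CPM for CS2 and 842.3 ± 61.7 CPM for CS3 at 1 h (SD, n = 3). It held at most 0.366 counts per base.

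Most like Solyc02g088610 were Solyc12g089210 (r = 0.992), Solyc09g065610 (r = 0.991) and Solyc03g117630 (r = 0.991). Solyc03g117630 was found at 1 h at 903.3 ± 80.2 CPM for WT, 352.2 ± 229 for CS2 and 849.6 ± 155 for CS3 (SD, n = 3). Most like Solyc06g011400 were Solyc06g011380 (r = 0.996), Solyc01g091270 (r = 0.993) and Solyc05g055010 (r = 0.992). Solyc01g091270 showed the same order of genotypes at 1 h, with 329.8 ± 32.2 CPM in WT, 195.0 ± 39.7 CPM in CS3 and 61.2 ± 27.6 CPM in CS2 (SD, n = 3).

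The gene most like Solyc06g011400 was also its neighbour on the chromosome. Solyc06g011380 lies upstream on the same strand, with 20532 bases between the spans, and no other gene of the table lies between them. It stood at 15.5 ± 1.90 CPM for WT, 13.5 ± 1.52 CPM for CS2 and 14 ± 2.01 CPM for CS3 at 0 h, and at 145.0 ± 23.7, 43.7 ± 10.8 and 105.4 ± 15.7 CPM at 1 h (SD, n = 3). On the log2 scale it rose by 3.21 in WT, 1.67 in CS2 and 2.92 in CS3, and stood at −1.76 in CS2 and −0.46 in CS3 against WT at 1 h. The other neighbour of Solyc06g011400, Solyc06g011403, had r = 0.447. The neighbours of HSP101, Solyc03g115220 and Solyc03g115240, had r = −0.921 and 0.481 with it, and those of Solyc02g088610, Solyc02g088600 and Solyc02g088620, had r = −0.0564 and −0.583, the first ending 230 bases from the end of Solyc02g088610 on the opposite strand.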

How the data were processed

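The members, lists and tests were chosen with earlier results of these data known. The deposited table holds counts, which the authors made from single-end reads of 75 bp of a strand-specific kit. Per the file headers and the submitters' processing notes, reads were trimmed with Trimmomatic 0.38, aligned with Bowtie2 2.3.5 (the methods name STAR) to M82 V1.0, kept at a mapping quality of at least 30, cleared of PCR duplicates as the names in the header say, and counted with featureCounts 2.0.0, by strand and with multiple mapping and overlapping reads allowed, over 1 span per gene. Whether near-identical copies share or lose reads under these settings was not tested.

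After a minimum of 50 counts in 2 or more libraries, 15312 of 35821 genes were fitted in R 4.3.3 with the edgeR 4.0.16 quasi-likelihood test, with TMM factors and 1 model of 6 conditions. P-values were adjusted by Benjamini-Hochberg over all tested genes and called below 0.05. CPM use TMM library sizes, and levels between genes are per kilobase of gene span. Correlations use log2 CPM with a prior count of 2. DESeq2 1.42.0, other normalizations and filters, each library left out, a replicate block and a correction for removed duplicates were alternatives. The steps were tested on simulated data.

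Genes named were the members, HSFA1A, the 3 genes most like each member by Pearson's r and the 2 most abundant genes of each partner list; Hsc70.2, HSP17.8, HSTF24 and the flanking genes lie outside this rule and were added after their values were seen. A list of partner genes by description had been planned, but the reference pairs genes only with symbols. RefSeq identifiers matched 0 rows, so that 23 of 41 symbols sought were joined to the M82 genes by distances to neighbours within 100000 bases (tolerance 300 bases), and HSFA2 was taken from the study. No sequences were used here. Counts carry no molecular identifiers. Standard errors and intervals come from the edgeR fit, whose spread was estimated from the 3 biological replicates of each condition.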

Additional observations from a re-analysis of the deposited data

Results flagged for a closer look

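The heat response of Solyc02g088610 was smaller in the libraries labelled CS2 than in WT by −1.17 on the log2 scale (adjusted p = 0.0132, edgeR), and that of Solyc06g011400 by −1.14 (adjusted p = 0.000665). All 3 CS2 libraries at 1 h lay below all 3 WT libraries for both genes. The share of tested genes with that order was not computed, while 15.3% were called lower in CS2 than in WT at 1 h. HSP101 differed by 0.01 (adjusted p = 0.986, edgeR) on counts of 0.502 to 0.617 per base of its span at 1 h. In the 6 libraries of both lines, no single library of the 3 genes stood apart at either time by Dixon's test, with gaps of at most 0.457 of the range. That test pooled CS2 and CS3, so that it cannot show a library apart within its own line. In CS2 at 1 h, Solyc02g088610 stood at 802.6, 417.1 and 372.3 CPM.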

How the results depend on the processing

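Of 405 alternative values for the 15 called results of the 3 genes, 0 changed sign and 4 lost the call. Of 567 for the 21 results not called, 17 became called and 25 changed sign, among them values of HSP101 in CS2 against WT at 1 h, which ran from −0.32 to 0.14 with 1 library left out. For Solyc06g011400 in CS3 against WT at 1 h, the log2 fold change of −0.35 (adjusted p = 0.0622, edgeR) became called with DESeq2 (−0.35), with library sizes alone (−0.36), with only the libraries compared (−0.36) and with the duplicate correction over the whole span (−0.40). With 1 library left out it ran from −0.42 to −0.25. The lower Solyc02g088610 in CS2 than in CS3 at 1 h was no longer called with only the libraries compared (−1.05, adjusted p = 0.0871, edgeR), where fewer libraries set the spread, and ran from −1.45 to −0.84 with 1 library left out. The difference between the heat responses of CS2 and CS3 became called for Solyc06g011400 with DESeq2 (−1.03), library sizes alone (−1.05), upper quartile scaling (−1.05), no filter (−1.05) and the duplicate correction (−1.09). With 1 library left out it ran from −1.20 to −0.94, and that of Solyc02g088610 from −1.43 to −0.81, called only without CS2 replicate 1 at 1 h (adjusted p = 0.00474).

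Same-numbered libraries deviated together with a median r of 0.0237 (−0.399 to 0.411), against 0.0173 (−0.517 to 0.463) for libraries of different number. Whether some of them share a batch was not tested. A fit with the replicate number as a block changed no call of the 3 genes, with −1.18 for Solyc02g088610 and −1.48 for Solyc06g011400 in CS2 against WT at 1 h.

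Counts of called genes moved by over 1.5 times in these comparisons. For CS2 against WT at 0 h, 8 became 25 with DESeq2 and 35 without a filter. For CS3 against WT at 0 h, 35 became 128, 97 without a filter, 23 with library sizes alone and 1 with only the libraries compared. For the lines against each other at 0 h, 4 became 10, 9 without a filter and 0 with only the libraries compared, and for their heat responses 16 became 59, 36 and 7. With 1 library left out, the 360 genes that differed between the lines at 1 h ran from 89 to 719, the 3727 in CS3 against WT at 1 h from 2436 to 4430 and the 1571 in its heat response from 966 to 1938. The 8, 35, 4 and 16 above ran from 3 to 23, 13 to 38, 0 to 8 and 7 to 38.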
